A study of Homo sapiens with 6 samples.

Results

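The genes described here are the cyclins, the cyclin-dependent kinases (CDKs), the CDK inhibitors, the CDC25 phosphatases and their closest regulators. They were chosen by symbol from a list of 51, and 49 of them were among the 12982 genes of the table. CCND2 and CDK14 were not analysed here. By their known roles they were placed in 4 groups, with 12 mitotic, 14 G1, 14 transcriptional and 9 other members in the table. Expression had been measured by RNA sequencing in SW480, a long-established line of human colorectal adenocarcinoma cells with the genotype label WT. The cells received either DMSO, the solvent control, or MPM-1 for 24 h, with 3 libraries per treatment. MPM-1 is a fluorescent probe molecule directed at mitochondria, which the labels also call WT4, and its dose in this experiment is not given in the sources used here. Nothing in the labels says whether the libraries of a treatment came from separate cultures, so the p-values measure the spread between these libraries, which may be technical.

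Cyclins are proteins whose amount rises and falls through the cell cycle, and each switches on a partner kinase. D-type cyclins with CDK4 or CDK6 act in G1 and phosphorylate the retinoblastoma protein, E-type cyclins with CDK2 act at the entry into S phase, and A- and B-type cyclins with CDK1 drive mitosis. The INK4 and CIP/KIP inhibitors hold these kinases back, WEE1 and PKMYT1 phosphorylate and restrain CDK1, and the CDC25 phosphatases remove those phosphates. A further branch of the family does not follow the cycle and instead serves RNA polymerase II, in transcription and in splicing.

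Each DMSO library held 32095456 to 40269820 counts and each MPM-1 library 31733667 to 35403841. Levels are given as CPM, read counts put on a common scale across libraries with the TMM method, and, where different genes are compared, as FPKM, the deposited value that also allows for transcript length. The treatments separated along the first principal component, which carried 78.7% of the variance. All 9 epithelial markers were in the table. Their summed level was 4829 to 5553 FPKM in DMSO and 6737 to 7201 FPKM in MPM-1 libraries, but single markers went both ways. In CPM, every MPM-1 library lay above every DMSO library for 4 of them (background 31.0% of all genes). These were CDH1, KRT8, KRT18 and KRT19, with log2 fold changes of 0.42 to 0.89. For 4 others every MPM-1 library lay below (background 33.3%). These were CDX1 (-0.98), VIL1 (-0.88), CDX2 (-2.20) and KRT20 (-2.03), and EPCAM overlapped. Of 10 markers of blood, fibroblast and endothelial cells only CD68 and COL1A1 were in the table, with a summed level of 32.0 to 46.3 FPKM in DMSO and 68.6 to 73.7 FPKM in MPM-1 libraries. The macrophage gene CD68 rose (log2 1.08) and the collagen gene COL1A1 fell, from 2.97 ± 0.341 to 0.705 ± 0.503 CPM (log2 -2.07; SD, n = 3 each). The part of these markers in the results below was not tested. In bulk RNA, fewer cells in a phase of the cycle and less RNA per cell cannot be told apart.

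Against DMSO, 11 of the 49 members fell and 4 rose after MPM-1. The falls were concentrated in the mitotic members, where 8 of 12 fell and 0 rose, while the G1 members were divided into 3 that fell and 3 that rose. In the transcriptional group CCNL1 alone rose, and in the group of other members 0 passed in either direction. A gene is said to have risen or fallen where edgeR's quasi-likelihood test gave a Benjamini-Hochberg adjusted p under 0.01 over all genes and the log2 fold change was at least 1 in size. Of all genes tested, 14.3% passed this rule, 5.58% upwards and 8.75% downwards, against 30.6% of the members. With an adjusted p under 0.05 and no fold threshold, 10 members lay higher and 19 lower, or 59.2% against a background of 56.5%. The MPM-1 and DMSO libraries did not overlap in 34 of the 49 members (69.4%), where the background was 64.3%. The median log2 fold change of the members was -0.17, beside -0.03 for all genes.

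**Figure D1:**
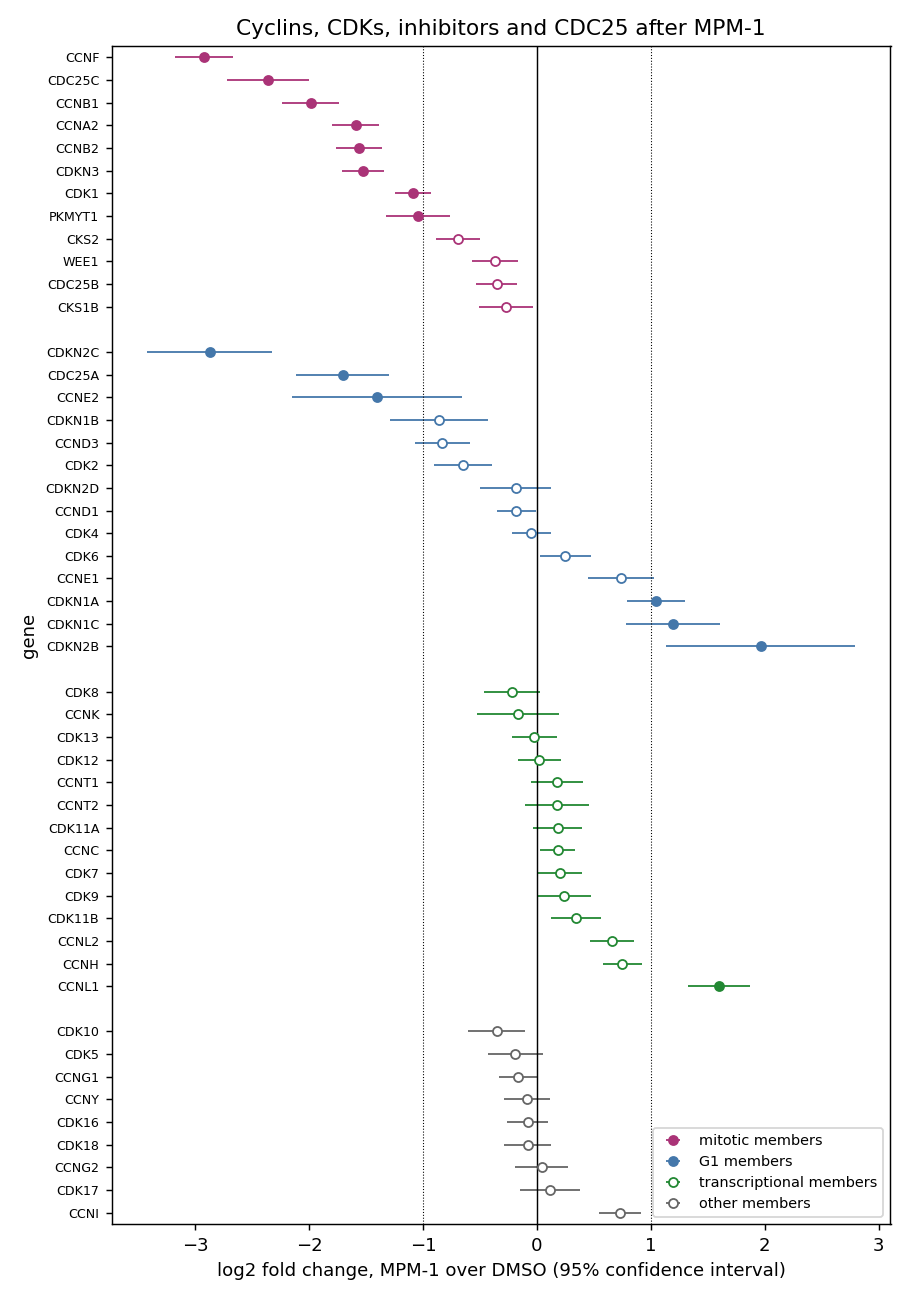
Log2 fold change of MPM-1 over DMSO (x axis) for each of the 49 members (y axis), in the 4 role groups and ordered by size within each. Points are fitted values from edgeR, bars are 95% confidence intervals, filled points passed the rule and the dotted lines mark a log2 fold change of 1 in size; all 12 mitotic members lie left of 0, from -2.93 for CCNF to -0.27 for CKS1B.

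The mitotic members had a median log2 fold change of -1.31. All 12 lay lower after MPM-1 with an adjusted p under 0.05, where the background was 28.8% of genes lower, and in all 12 every MPM-1 library lay below every DMSO library, where the background was 33.3%. No mitotic member rose under any of the alternative settings tried. CCNF, CDC25C, CCNB1, CCNA2, CCNB2, CDKN3, CDK1 and PKMYT1 fell, and CKS2, WEE1, CDC25B and CKS1B were lower by less than the fold threshold.

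CCNF encodes cyclin F, which binds no CDK and is the substrate-recognition part of an SCF ubiquitin ligase. Its level was 46.1, 40.8 and 39.2 CPM in DMSO libraries 1 to 3 and 5.22, 5.56 and 5.78 CPM in MPM-1 libraries 1 to 3. The MPM-1 libraries were close together and far under the lowest DMSO library. CCNF was 7.61-fold lower, the largest change of any member, with a log2 fold change of -2.93 ± 0.11 (SE; adjusted p = 2.44e-07, edgeR).

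CDC25C, the phosphatase that activates CDK1 at mitotic entry, was at 52.5, 46.8 and 45.5 CPM in DMSO and at 9.52, 11.5 and 7.15 CPM in MPM-1 libraries. The groups did not overlap, and the spread within MPM-1 was wide for its level. It fell by 2.36 on the log2 scale (SE 0.16, adjusted p = 3.94e-06). Of the 50-base words in its transcripts, 6.75% also occurred in other genes, chiefly FAM53C on the opposite strand. The share was larger in the mitotic members CCNF (7.45%, chiefly AC106820.6), CCNA2 (7.38%, EXOSC9) and CKS1B (11.3%, chiefly CKS1BP3). Outside this group it was 8.34% in CCND1 (LTO1), 11.7% in CDK2 (chiefly AC025162.1), 10.2% in CDK5 (chiefly SLC4A2) and 7.38% in CCNC (chiefly AL137784.2).

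CCNB1, the main B-type partner of CDK1, was at 218, 242 and 241 CPM in DMSO and at 51.8, 69.1 and 55.8 CPM after MPM-1, 3.96-fold lower (log2 -1.99 ± 0.11, adjusted p = 1.5e-06). The second B-type cyclin, CCNB2, was at 128, 115 and 114 CPM against 41.7, 43.0 and 36.6 CPM, 2.95-fold lower (log2 -1.56 ± 0.09, adjusted p = 1.67e-06). Cyclin A2, encoded by CCNA2 and active from S phase to mitosis, was at 119, 109 and 108 CPM against 33.3, 37.3 and 41.0 CPM, 3.02-fold lower (log2 -1.59 ± 0.09, adjusted p = 1.86e-06). In each of these cyclins the gap between the groups was many times the spread inside them. Their kinase CDK1 moved less, from 159, 153 and 154 CPM to 70.7, 75.7 and 72.2 CPM, 2.13-fold lower (log2 -1.09 ± 0.07, adjusted p = 2.91e-06).

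CDKN3, a phosphatase that acts on CDKs, had nearly equal DMSO libraries at 88.6, 88.5 and 87.1 CPM and fell to 31.3, 32.4 and 27.8 CPM (log2 -1.53 ± 0.08, adjusted p = 1.08e-06). PKMYT1, the membrane-bound kinase that restrains CDK1, was at 28.8, 31.0 and 27.1 CPM in DMSO and at 15.9, 11.9 and 14.3 CPM after MPM-1 (log2 -1.04 ± 0.13, adjusted p = 0.000111). The call of PKMYT1 rested on the fold threshold, since the log2 fold change was -0.99 without DMSO library 2 and -0.91 without MPM-1 library 2. It shared 25.8% of its 50-base words with other genes, mostly PAQR4 on the opposite strand.

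CKS2, a small subunit that docks CDKs to their substrates, had the highest FPKM of the mitotic members. Its level was 187, 186 and 198 CPM in DMSO and 125, 105 and 122 CPM after MPM-1, so the groups were apart, but the log2 fold change of -0.69 ± 0.09 stayed under the threshold (adjusted p = 0.000122). The remaining members of the group were the CDK1-restraining kinase WEE1 (-0.37, adjusted p = 0.00581), the phosphatase CDC25B (-0.36, adjusted p = 0.00472) and the second docking subunit CKS1B (-0.27, adjusted p = 0.0473). The restraining kinases and the activating phosphatases of CDK1 therefore both lay lower, and within each pair one member fell and the other was lower by less than the fold threshold.

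**Figure D2:**
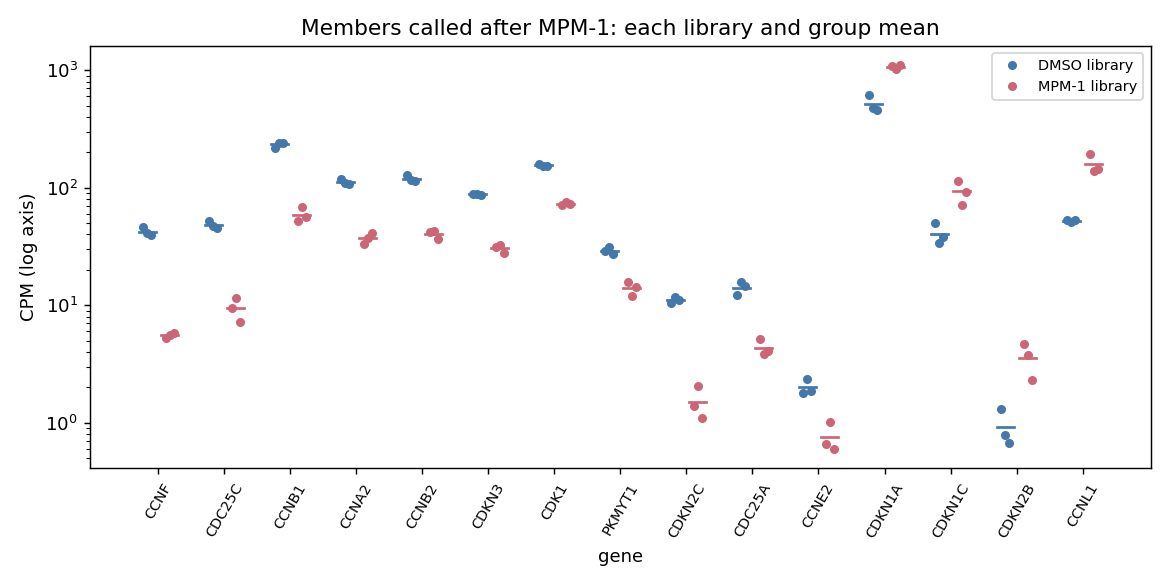
CPM on a log axis for the 15 members that passed the rule; each point is a library, bars are the means of 3 libraries, blue for DMSO and red for MPM-1. The groups are apart in every gene shown, and the group means run from 0.753 CPM for CCNE2 to 1065 CPM for CDKN1A, both after MPM-1.

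Promoter sequence was examined because many mitotic genes are known to carry a cell cycle genes homology region (CHR), an element bound by complexes of the DREAM family, together with CCAAT boxes bound by NF-Y. RefSeq promoters on GRCh38.p14, each covering 250 bases before to 50 after a start site, were at hand for 43 of the 49 members. Both strands and all listed windows of a gene were searched, and a gene counted if any of its windows held the letters. More than 1 window was listed for 14 of the members. The CHR letters TTTGAA or TTCGAA were found in 8 of 10 mitotic members and in 0 of 10 G1 members. They were also found in 1 of 14 transcriptional members (CCNC) and in 1 of 9 other members (CCNI). The same letters occur in 15.1% of the 9595 genes of the table that have such a promoter and in 19.5% of all 27305 genes with one. The 8 mitotic genes were CCNB2, CCNF, CDK1, CDC25C and CDKN3, which fell, and CDC25B, CKS1B and CKS2, which did not pass the fold threshold. CCNA2 and CCNB1 fell without these letters in the window, and no other letters were searched for as a CHR. Whether these genes carry the element in another form was therefore not tested. CCAAT was present in 10 of 10 mitotic promoters, against 43.1% of the genes of the table and 39.7% of all genes. The E2F letters TTTCCCGC or TTTGGCGC were present in 0 of 10 mitotic and 1 of 10 G1 promoters (CDC25A), with 4.60% among genes of the table. No motif overlapped another in the stretches shown. The letters are a description of these windows and not a test of binding.

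The 110 bases before the RefSeq start are shown for CCNB2 and CCNF, which fell, and for CKS1B and CKS2, which carry the same letters and did not pass the fold threshold. They are read from 5′ to 3′ on the plus strand, and capitals mark the CHR and CCAAT letters on either strand. The GENCODE 29 gene models of CCNB2, CCNF and CKS1B begin inside the stretch, and that of CKS2 begins after it.
CCNB2, chr15:59105036-59105145: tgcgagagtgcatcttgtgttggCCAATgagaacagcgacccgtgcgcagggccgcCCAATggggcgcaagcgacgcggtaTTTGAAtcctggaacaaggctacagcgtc
CCNF, chr16:2429337-2429446: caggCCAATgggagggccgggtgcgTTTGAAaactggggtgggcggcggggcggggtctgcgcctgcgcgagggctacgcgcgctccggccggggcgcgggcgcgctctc
CKS1B, chr1:154974571-154974680: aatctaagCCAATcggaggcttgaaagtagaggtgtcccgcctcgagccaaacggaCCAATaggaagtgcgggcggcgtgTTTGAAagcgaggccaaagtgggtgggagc
CKS2, chr9:89311085-89311194: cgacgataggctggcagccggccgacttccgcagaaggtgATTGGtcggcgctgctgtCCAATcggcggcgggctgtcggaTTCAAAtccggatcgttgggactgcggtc
Counted back from the start, the CHR begins at -29 in CCNB2, -85 in CCNF, -30 in CKS1B and -29 in CKS2, where it is read from the opposite strand. Counted from the RefSeq start, the nearest CHR letters of CCNF lay farther away than those of the other genes shown. That order depends on the start used, because the GENCODE 29 model of CCNF begins inside its stretch, at chr16:2429394. Its relation to the size of the falls was not tested.

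The G1 members had a median log2 fold change of -0.18, with changes in both directions. CDKN2C, CDC25A and CCNE2 fell, and CDKN2B, CDKN1C and CDKN1A rose. With an adjusted p under 0.05 and no fold threshold, 6 members lay lower and 4 higher, where the backgrounds were 28.8% and 27.7% of all genes.

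The G1 kinases and cyclins whose proteins the study blotted differed in RNA by less than the fold threshold. The study reported less protein of each after MPM-1, in SW480 and in its other cell lines. RNA and protein are unlike measures, and the relation between them was not tested. Cyclin D1, CCND1, was at 239, 269 and 254 CPM in DMSO and at 216, 235 and 222 CPM after MPM-1, so the groups were just apart. Its log2 fold change was -0.18 (95% interval -0.35 to -0.01, adjusted p = 0.0666), and with scaling by library size alone it was -0.33 (adjusted p = 0.00675). CCND3, cyclin D3, was at 49.9, 48.0 and 47.5 CPM against 31.5, 26.1 and 24.2 CPM, 1.78-fold lower and under the fold threshold (log2 -0.83 ± 0.11, adjusted p = 0.000155). These D-type cyclins differed in the size of their change, although that difference was tested only through the share described below.

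CDK4 was at 164, 171 and 186 CPM in DMSO and at 170, 166 and 168 CPM after MPM-1, and the groups overlapped in CPM. In FPKM they were apart, at 83.9, 86.1 and 98.0 in DMSO and 74.6, 76.3 and 75.4 after MPM-1. The log2 fold change was -0.05 (95% interval -0.22 to 0.12, adjusted p = 0.603). Over all alternative settings it ran from -0.24 to 0.01, the latter without DMSO library 3. Of its 50-base words, 34.9% were shared with TSPAN31 on the opposite strand. CDK6, the alternative partner of the D cyclins, was at 22.4, 27.2 and 26.0 CPM against 31.3, 29.7 and 28.9 CPM. The MPM-1 libraries of CDK6 all lay above the DMSO libraries, but the log2 fold change of 0.25 did not pass (95% interval 0.02 to 0.48, adjusted p = 0.0593).

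At the entry into S phase the members moved apart. Cyclin E1, CCNE1, was at 13.7 ± 1.46 CPM in DMSO and 22.8 ± 2.18 CPM after MPM-1 (SD, n = 3 each), with a log2 fold change of 0.74 under the fold threshold (adjusted p = 0.000982). Cyclin E2, CCNE2, was near the lower end of the table, with 59, 101 and 74 counts in DMSO and 20, 31 and 20 counts after MPM-1. In CPM these were 1.79, 2.34 and 1.86 against 0.656, 1.01 and 0.596, so the groups were apart and the log2 fold change was -1.41 ± 0.33 (adjusted p = 0.0053). This call was lost when any library but MPM-1 library 2 was left out, with log2 fold changes of -1.48, -1.27 and -1.45 without DMSO libraries 1, 2 and 3 and of -1.30 and -1.24 without MPM-1 libraries 1 and 3 (adjusted p = 0.0106 to 0.0268). CCNE2 also shared 35.2% of its 50-base words with INTS8 on the opposite strand. Their kinase CDK2 was at 71.0 ± 1.33 CPM in DMSO and 45.2 ± 7.38 CPM after MPM-1 (log2 -0.65, adjusted p = 0.000987), under the fold threshold.

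CDC25A, the phosphatase that activates CDK2 at this step, was at 12.1, 15.7 and 14.5 CPM in DMSO and at 5.12, 3.80 and 4.05 CPM after MPM-1. Each MPM-1 library lay below each DMSO library, and the gene was 3.26-fold lower (log2 -1.71 ± 0.18, adjusted p = 5.39e-05). Of the CDC25 phosphatases, CDC25C and CDC25A therefore fell, and CDC25B was lower by less than the fold threshold.

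Of the 6 CDK inhibitors, 3 rose and 1 fell, where 5.58% of all genes rose and 8.75% fell. With limma on log2(FPKM + 0.1), 0 G1 members were called higher, and CDKN2B lay below the filter of 1 FPKM. Among the INK4 proteins, which bind CDK4 and CDK6, CDKN2C (p18) was at 10.5, 11.7 and 11.0 CPM in DMSO and at 1.38, 2.05 and 1.10 CPM after MPM-1. Every MPM-1 library was far below the DMSO libraries, and CDKN2C was 7.34-fold lower (log2 -2.88 ± 0.24, adjusted p = 1.36e-05). CDKN2B (p15) was scarce, with 43, 34 and 27 counts in DMSO and 142, 116 and 78 counts after MPM-1, or 1.30, 0.787 and 0.678 against 4.66, 3.77 and 2.32 CPM. The groups were apart and CDKN2B was 3.90-fold higher (log2 1.96 ± 0.37, adjusted p = 0.00154), with a wide interval of 1.13 to 2.79. CDKN2D (p19) overlapped in its libraries, with a log2 fold change of -0.19 (95% interval -0.50 to 0.13, adjusted p = 0.28).

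Among the CIP/KIP proteins, which also bind CDK2, CDKN1A (p21, a target of p53) had the highest mean FPKM of the members over all 6 libraries, although CKS2 was higher in DMSO (317 ± 14.3 against 233 ± 36.2 FPKM). Its level was 620, 474 and 454 CPM in DMSO and 1075, 1017 and 1103 CPM after MPM-1. DMSO library 1 stood above the other DMSO libraries but well below all MPM-1 libraries, and the gene was 2.06-fold higher (log2 1.05 ± 0.11, adjusted p = 5.62e-05). The log2 fold change was under the threshold without DMSO library 2 (0.99), without DMSO library 3 (0.96), with scaling by library size alone (0.90) and on the FPKM scale (0.92). CDKN1C (p57) was at 50.03, 33.7 and 37.8 CPM against 115, 71.6 and 91.7 CPM, 2.29-fold higher (log2 1.20 ± 0.18, adjusted p = 0.000457). The log2 fold change of CDKN1C was 0.98 on the log2(FPKM + 0.1) scale, so both rises were close to the threshold. CDKN1B (p27) lay the other way, from 81.4 ± 7.02 to 44.8 ± 14.3 CPM (log2 -0.86, adjusted p = 0.0038), without reaching the fold threshold.

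In FPKM the order of the A, B, D and E cyclins in DMSO was CCNB1 (115 ± 9.96), CCNB2 (76.7 ± 2.92), CCND1 (60.4 ± 4.68), CCNA2 (41.0 ± 1.37), CCND3 (24.0 ± 0.0784), CCNE1 (7.34 ± 0.587) and CCNE2 (0.940 ± 0.427), and no neighbours in that order overlapped. After MPM-1 CCND1 came first at 48.2 ± 2.95 FPKM. CCNB1 (25.2 ± 4.16) and CCNB2 (21.3 ± 2.06) followed and overlapped in their libraries, as did CCNA2 (12.2 ± 1.37), CCND3 (12.1 ± 1.45) and CCNE1 (11.2 ± 1.29). Among the 16 CDKs, CDK4 was highest in both treatments, at 89.4 ± 7.60 FPKM in DMSO and 75.4 ± 0.858 FPKM after MPM-1. CDK1 was second in DMSO at 83.3 ± 1.72 FPKM, overlapping with CDK4, and below CDK4 and CDK7 after MPM-1 at 35.5 ± 2.40 FPKM. CDK6 was the lowest CDK in both, at 2.22 ± 0.260 and 2.50 ± 0.0581 FPKM. CDKN1A was the highest inhibitor, at 233 ± 36.2 FPKM in DMSO and 438 ± 13.9 FPKM after MPM-1. CDKN1B and CDKN1C were at 31.3 ± 3.23 and 24.5 ± 4.57 FPKM in DMSO, where their libraries overlapped, and at 15.5 ± 5.24 and 48.5 ± 10.1 FPKM after MPM-1, where every CDKN1C library was the higher.

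**Figure D3:**
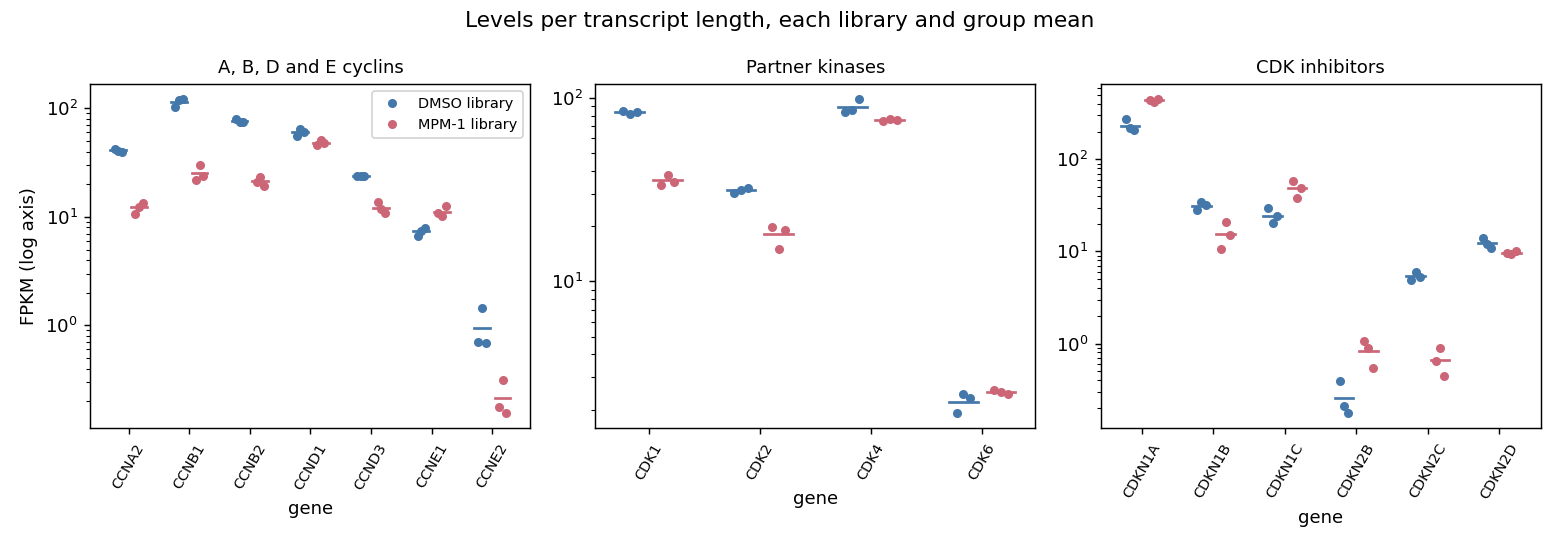
FPKM on a log axis for the A, B, D and E cyclins, for CDK1, CDK2, CDK4 and CDK6 and for the 6 CDK inhibitors; points are libraries and bars are means of 3 libraries, blue for DMSO and red for MPM-1. CCNB1 is the highest of these cyclins in DMSO at 115 FPKM and CCND1 after MPM-1 at 48.2 FPKM.

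CCND1 made up 69.8%, 73.0% and 71.8% of the summed FPKM of CCND1 and CCND3 in DMSO and 76.9%, 81.3% and 81.5% after MPM-1. Every MPM-1 library was above every DMSO library, and the mean went from 71.5% ± 1.59 to 79.9% ± 2.59 (SD, n = 3 each; exact two-sided permutation test, p = 0.1 and 0.1 adjusted over 2 ratios). The FPKM of CDK4 was 43.6, 35.5 and 42.6 times that of CDK6 in DMSO and 29.2, 30.5 and 30.9 times that of CDK6 after MPM-1. This ratio also did not overlap between the groups, with means of 40.6 ± 4.39 and 30.2 ± 0.917 (exact two-sided permutation test, p = 0.1 and 0.1 adjusted over 2 ratios). With 3 libraries against 3, 0.1 is the smallest p that the test allows, so neither ratio could pass.

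The transcriptional members had a median log2 fold change of 0.18, with 11 above 0 and 3 below, beside 6280 above and 6702 below among all genes. With an adjusted p under 0.05 and no fold threshold, 5 of 14 lay higher (background 27.7%) and 0 lower (background 28.8%). Every MPM-1 library lay above every DMSO library in 7 of 14 (background 31.0%) and below in 0 (background 33.3%). CCNL1 was the sole member that passed the rule, or 7.14%, where 14.3% of all genes passed. With scaling by library size alone the median of this group was 0.03. CCNL1 encodes cyclin L1, which works with CDK11 in pre-mRNA splicing. Its level was 52.8, 50.7 and 52.9 CPM in DMSO and 192, 137 and 145 CPM after MPM-1. MPM-1 library 1 was the highest, and CCNL1 was 3.03-fold higher (log2 1.60 ± 0.12, adjusted p = 7.32e-06), or 1.45 on the log2 scale without that library. Its paralog CCNL2 was at 85.7 ± 5.35 and 135 ± 10.8 CPM (log2 0.66, adjusted p = 0.000181), under the fold threshold.

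The CDK-activating kinase, which phosphorylates both the cell cycle CDKs and RNA polymerase II, contains CDK7 and cyclin H. CCNH was at 58.6 ± 2.03 CPM in DMSO and 98.4 ± 5.45 CPM after MPM-1, under the fold threshold (log2 0.75, adjusted p = 3.8e-05), and CDK7 had a log2 fold change of 0.20 (adjusted p = 0.0653). The highest FPKM of the group was that of CCNC, the Mediator cyclin, at 193, 179 and 179 CPM in DMSO and 211, 206 and 208 CPM after MPM-1. Its libraries were apart in CPM with a log2 fold change of 0.18 (adjusted p = 0.0499), while on the log2(FPKM + 0.1) scale the sign turned to -0.07. CDK8, the Mediator kinase, had the lowest log2 fold change of the group, at -0.22 (adjusted p = 0.116).

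Among the elongation factors, CDK9, CCNT1, CCNT2, CCNK, CDK12 and CDK13 had log2 fold changes between -0.17 (CCNK) and 0.24 (CDK9). The libraries of the treatments overlapped in all 6, while in 64.3% of all genes they did not overlap. The paralogs CDK11A (0.18, adjusted p = 0.139) and CDK11B (0.34, adjusted p = 0.0143) shared 46.5% of the 50-base words of CDK11B with each other, so how the counting divided their reads is uncertain. CCNK shared 55.4% of its words with CCDC85C on the opposite strand, and CCNH shared 18.4%, chiefly with RASA1 on the opposite strand.

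The other members had a median log2 fold change of -0.08, and 0 of 9 passed the rule, where 14.3% of all genes passed. With an adjusted p under 0.05 and no fold threshold, 2 of the 9 passed (22.2%, background 56.5%), CCNI upwards and CDK10 downwards. CCNI, a cyclin of widespread expression, had the highest FPKM of this group and lay apart, at 429, 419 and 407 CPM in DMSO and 732, 617 and 734 CPM after MPM-1, 1.66-fold higher and under the fold threshold (log2 0.73 ± 0.08, adjusted p = 7.32e-05). CDK10 had the lowest log2 fold change of the group, at -0.35 (adjusted p = 0.0223). CCNG1, CCNG2, CCNY, CDK5, CDK16, CDK17 and CDK18 lay between -0.19 (CDK5) and 0.12 (CDK17). In 6 of these 7 the libraries of the treatments overlapped, while in 64.3% of all genes they did not overlap. The exception was CCNG1, at 357 to 373 CPM in DMSO and 299.6 to 344 CPM after MPM-1 (adjusted p = 0.083).

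The regulators that surround these genes were described from 4 further lists. Of 91 genes in the table, 15 fell and 2 rose (18.7%, where 14.3% of all genes passed), and the median log2 fold change was -0.15. In the list of the RB, E2F and DREAM complex genes, 4 of 20 fell and 0 rose (20%). MYBL2, the B-MYB subunit that joins the complex in S phase, went from 117 ± 7.82 to 34.1 ± 5.14 CPM (log2 -1.78, adjusted p = 2.87e-06). E2F2, an activator of S phase genes, went from 5.88 ± 1.62 to 1.83 ± 0.710 CPM (log2 -1.69, adjusted p = 0.00187), and without DMSO library 2 it was no longer called (log2 -1.54, adjusted p = 0.0103). The repressor E2F8 went from 7.80 ± 0.722 to 2.56 ± 0.282 CPM (log2 -1.61, adjusted p = 0.00011), and FOXM1 was the remaining gene that fell, at -1.35. RB1, which the D cyclin kinases phosphorylate, had a log2 fold change of 0.70 (adjusted p = 0.00146).

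The ubiquitin ligases SCF and APC/C destroy cyclins and inhibitors. Of 27 genes of their list 6 fell and 1 rose (25.9%, where 14.3% of all genes passed). CDC20, the APC/C activator of mitosis, went from 351 ± 43.6 to 105 ± 7.07 CPM (log2 -1.74, adjusted p = 1.86e-06). SKP2, the SCF subunit that targets p27, went from 44.8 ± 9.18 to 13.6 ± 2.37 CPM (log2 -1.72, adjusted p = 3.65e-05). FBXO5, an inhibitor of the APC/C, went from 15.6 ± 0.911 to 4.86 ± 1.92 CPM (log2 -1.68, adjusted p = 0.000624). The other genes that fell were UBE2C, ANAPC15 and UBE2S, and the gene that rose was CDC16, an APC/C scaffold subunit, from 85.8 ± 2.68 to 186 ± 9.95 CPM (log2 1.12, adjusted p = 3.51e-06). CDC16 was under the fold threshold with scaling by library size alone (0.97).

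Of 16 checkpoint and mitotic entry genes in the table, 2 fell and 0 rose. This share of 12.5% was below the 14.3% of all genes that passed. AURKA, which activates PLK1, fell by 2.21 on the log2 scale, and PLK1, which acts on WEE1 and CDC25C, went from 118 ± 7.72 to 29.1 ± 1.66 CPM (log2 -2.02, adjusted p = 4.07e-07).

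The last list held relatives and partners outside the members, and 3 of the 28 in the table fell and 1 rose. That is 14.3%, the same share as over all genes. CDK5R1, the p35 activator of CDK5, went from 5.15 ± 1.02 to 2.05 ± 0.569 CPM (log2 -1.33, adjusted p = 0.00287), and CABLES1, which links CDKs to tyrosine kinases, from 8.39 ± 1.18 to 4.05 ± 1.00 CPM (log2 -1.05, adjusted p = 0.0031). HEXIM1, which holds the CDK9 complex inactive on 7SK RNA, went from 33.3 ± 2.34 to 16.3 ± 1.40 CPM (log2 -1.03, adjusted p = 4.18e-05). CNTD2, a little-studied cyclin-fold gene, rose from 5.12 ± 0.674 to 13.6 ± 0.754 CPM (log2 1.41, adjusted p = 8.12e-05). These 3 falls were close to the thresholds, and all 3 calls were lost without DMSO library 2 and without MPM-1 library 3, while the log2 fold changes stayed similar. They were -1.21 and -1.38 for CDK5R1, -0.93 and -1.04 for CABLES1 and -0.98 and -0.98 for HEXIM1 without these libraries. Beside HEXIM1, the 7SK proteins HEXIM2 (-0.97, adjusted p = 0.00164) and LARP7 (-0.75, adjusted p = 0.000251) were lower by less than the threshold and were singled out after their values were seen.

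**Figure D4:**
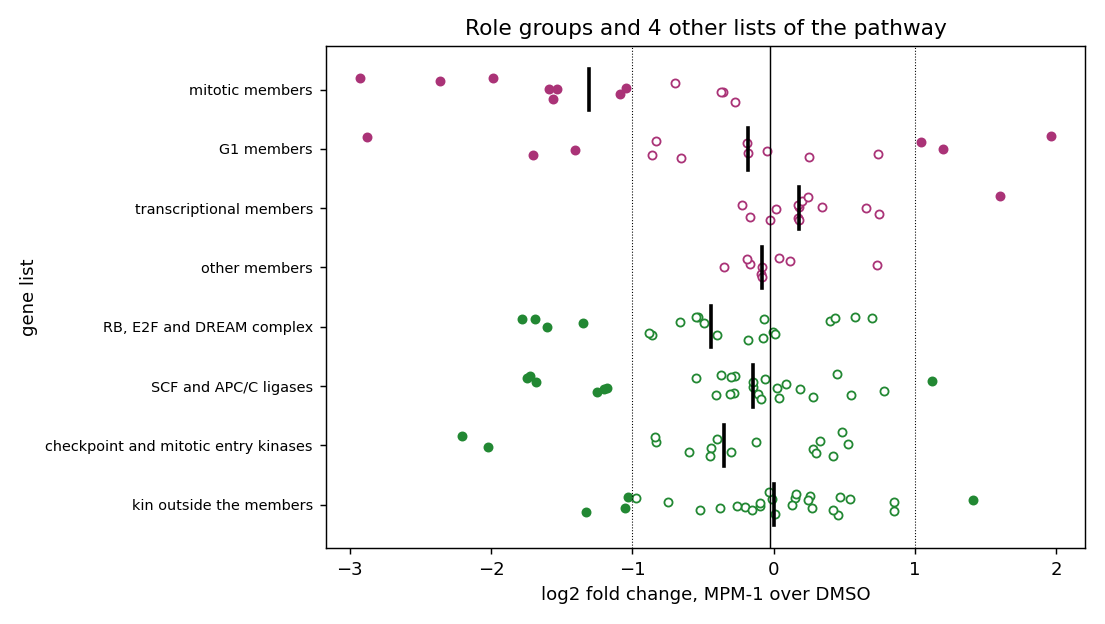
Log2 fold change of MPM-1 over DMSO (x axis) for each gene of the 4 role groups of members (purple) and of 4 further lists (green). Filled points passed the rule and black bars are medians. The solid line marks the median over all genes (-0.03) and the dotted lines mark a log2 fold change of 1 in size. The median is -1.31 for the mitotic members and between -0.44 and 0.18 for every other list shown.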

How the data were processed

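SW480 cells were treated with DMSO or MPM-1 for 24 h, with 3 libraries each, made with an mRNA kit. Groups and replicate numbers were taken from the sample labels, and the columns of the table were matched by name. The authors deposited whole-number counts per gene and FPKM values. They also deposited a log2 fold change and an adjusted p-value (FDR) of their own comparison, which were not used. Per the labels, the processing notes of the submitters list HISAT2, DESeq2 and the build mm10 without a role, although the gene identifiers are human Ensembl genes. The counter, its use of strand and the annotation are not given in the sources used here, and reads of a gene and of an overlapping gene on the other strand therefore cannot be told apart. Every gene in the table had at least 115 counts in total. All columns with values of a sample were used (0 left over).

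Counts were fitted with edgeR 4.0.16 in R 4.3.3 (TMM scaling, quasi-likelihood test, no covariates, 12982 genes, Benjamini-Hochberg adjustment), a procedure tested on simulated data. CPM are TMM-scaled. Scaling factors were 1.03 to 1.07 in DMSO and 0.93 to 0.97 in MPM-1 libraries. The floor of 3 counts is 0.0695 to 0.0985 CPM, which covers counting error only, because reads were not tagged by molecule and may repeat one another. Libraries of a group differed beyond sampling noise (chi-square of 15.4 to 33.2 per gene). Alternatives used DESeq2 1.42.0 and limma 3.58.1 on log2(FPKM + 0.1, 1 or 0.01) for genes averaging 1 FPKM or more, a scale that understates the change of low genes. Shared 50-base words were counted in GENCODE release 29 transcripts (GRCh38), and promoters are from RefSeq (GRCh38.p14).

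The members and lists were chosen with earlier results of these data known. All members were named, with each library's value for those called, for the blotted CCND1, CCND3, CDK4 and CDK6 and for the highest FPKM of a role group. From each further list the 3 largest rises and falls among called genes were named. A few more were named after their values were seen (FOXM1, UBE2C, ANAPC15, UBE2S, RB1, the epithelial markers, CD68 and COL1A1). The 4 further lists held 20, 27, 17 and 41 symbols, of which 0, 0, 1 and 13 were not analysed here. CCNP and FAM58A among those 13 are other names of CNTD2 and CCNQ.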

Additional observations from a re-analysis of the deposited data

How the results depend on the processing

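The fall of the mitotic members kept its direction under every setting tried, with 7 to 12 of 12 called and a median between -1.502 and -1.26. Scaling by library size alone shifted the median over all genes to -0.18 (log2) and those of the mitotic, G1, transcriptional and other members to -1.46, -0.33, 0.031 and -0.23, and it left 0 SCF and APC/C genes called higher. Limma on log2(FPKM + 0.1), log2(FPKM + 1) and log2(FPKM + 0.01) gave medians of -1.49, -1.44 and -1.502 for mitotic, -0.33, -0.32 and -0.34 for G1, 0.055, 0.049 and 0.056 for transcriptional and -0.25, -0.25 and -0.25 for other members. It called 1 member higher (CCNL1), 0 G1 members higher and 0 SCF and APC/C genes higher at each pseudocount, and turned CCNC to -0.066 in all 3. CDKN2B and CCNE2 lay below its filter of 1 FPKM. Over all genes it called 436, 351 and 446 higher, and 714 lower at a pseudocount of 1, against 725 and 1136. An adjusted p under 0.05 without a fold threshold called 3596 genes higher and 3740 lower, 10 members higher and 19 lower, 6 G1 members lower, 5 transcriptional members higher, and 1 other member in each direction. In the RB and E2F list it called 3 higher and 10 lower, in the ligase list 5 and 11, in the checkpoint list 6 and 8 and in the list of relatives 7 and 7. In CPM without length, CCND1 was 83.9% of the summed D cyclins in DMSO and 89.1% after MPM-1, and the ratio of CDK4 to CDK6 was 6.92 and 5.61. When libraries were left out singly, 9 to 11 members fell and 3 to 4 rose, among them 7 to 8 mitotic members and 2 to 4 G1 members that fell and 2 to 3 G1 members that rose. The G1 count of 4 came without MPM-1 library 2. The medians then ran from -1.32 to -1.26 for mitotic, -0.23 to -0.15 for G1, 0.17 to 0.23 for transcriptional and -0.12 to -0.014 for other members, and 0 to 4 relatives fell and 1 to 2 rose. CDK4 ran from -0.088 to 0.0056, the latter without DMSO library 3. The cause of these shifts was not tested. The replicate numbers were not used to pair the libraries. Deviations of same-numbered libraries correlated at 0.06, 0.11 and -0.09, and those of differently numbered libraries at -0.16 to 0.11. Such correlations over 3 libraries per group cannot show whether the libraries were paired. With the number as a replicate block, 11 members fell and 4 rose, 712 genes were higher and 1120 lower, and the mitotic median was -1.31. Depth limits CCNE2, CDKN2B, CDKN2C and CDC25A most, with lowest counts of 20, 27, 37 and 117 in a library.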
